A study of Homo sapiens with 4 samples.

Results

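The NDRG family (N-myc downstream regulated genes) was followed in KYSE170 cells, an established line of human oesophageal squamous carcinoma, after exposure to a prolyl hydroxylase inhibitor. The members are the 4 genes NDRG1, NDRG2, NDRG3 and NDRG4, taken as every array probe set annotated to exactly 1 of them, which gave 8 probe sets for 4 of the 19751 genes measured. Cells were grown in RPMI medium with fetal bovine serum and antibiotics, and were either left without treatment (2 arrays) or exposed for 12 h to 50 µg/ml of ethyl-3,4-dihydroxybenzoate (EDHB, 2 arrays). This compound blocks prolyl hydroxylases, and the comparison asks which transcripts differ after exposure to it. No vehicle is named for the untreated cells, and nothing in the labels says whether arrays of a group came from separate cultures, so any p-value measures the spread between these arrays only. The family was put forward with results of this same comparison in view, so its own values are given as a description, and nothing is read from any test of them.

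NDRG proteins share the fold of the alpha/beta hydrolases but are not known to act as hydrolases. NDRG1 is a cytoplasmic stress protein whose transcript is known to rise with low oxygen and with iron chelators, to be held down by N-MYC and MYC, and whose protein is phosphorylated by SGK1 and then GSK3; its loss causes a hereditary neuropathy of Schwann cells. NDRG2 is abundant in brain and muscle and is often lowered in tumours, NDRG3 is known as a protein marked for degradation by the prolyl hydroxylase EGLN1, and NDRG4 belongs mainly to heart and brain. The prolyl hydroxylases need iron and 2-oxoglutarate and mark the hypoxia-inducible factors (HIF) for destruction, so compounds that block them are known to induce HIF target genes.

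Each level below is the log2 of a normalised (RMA) probe set intensity, and a change is EDHB minus untreated in log2 units, so that a change of 1 is 2-fold. Levels of different probe sets cannot be set against each other, and a probe set below the median of all probe sets (4.54) was not shown to be above background. Median intensity lay between 23.3 and 23.5 across the arrays, and precision is limited by there being 2 in each group. Values of replicate 2 were deposited in a row order of their own. That order was restored from the untreated levels for 54459 of 54613 probe sets, all 8 of the family among them, and the change within replicate 1, which needs no restoring, is given for each of these 8. Of the markers of squamous epithelium measured, 5 of 6 lay above the median probe set (KRT5, SOX2, CDH1, EPCAM and ITGB4), whereas the basal keratin KRT14 lay below it at 3.19 to 4.30. Leukocyte markers were above it in 0 of 4 cases and fibroblast or endothelial markers in 3 of 8. The arrays read RNA of all cells together, so more cells carrying a transcript and more transcript per cell cannot be told apart.

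NDRG1 was several-fold higher after EDHB. Its 1 probe set read an intensity of 110.3 and 131 on the untreated arrays, and 474 and 739 on the EDHB arrays. In log2 terms the levels were 6.78 and 7.04 without EDHB, and 8.89 and 9.53 with it. Both EDHB arrays stood above both untreated arrays with a wide gap between the groups, and all 4 levels lay well above the median probe set. The mean level went from 6.91 ± 0.18 to 9.21 ± 0.45 (SD, n = 2 each), a change of 2.30 or 4.92-fold. The change was 2.10 within replicate 1 (4.30-fold) and 2.49 within replicate 2 (5.62-fold).

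**Figure D1:**
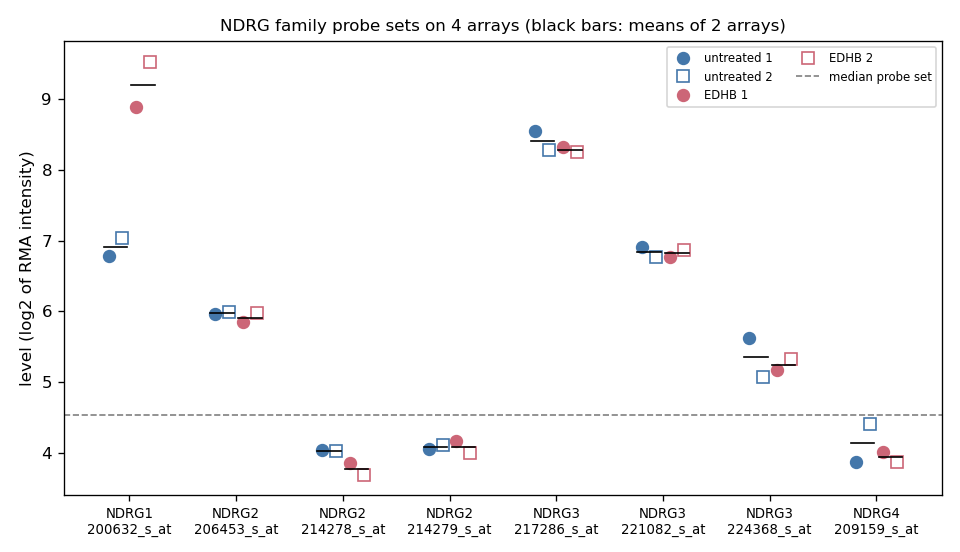
Levels (log2 of RMA intensity, vertical axis) of the 8 NDRG probe sets on each of the 4 arrays; filled circles are replicate 1, open squares replicate 2, blue untreated and red EDHB, black bars the means of 2 arrays, and the dashed line the median probe set at 4.54. NDRG1 lies near 7 without EDHB and near 9 with it, while the points of 6 of the other 7 probe sets overlap between the groups.

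The increase of NDRG1 was large against the rest of the array. By mean change it stood at rank 1 of the 19751 genes, the 154 probe sets that were not restored left aside, at rank 5 by the change within replicate 1 and at rank 1 by that within replicate 2. Without any restoring, its probe set stood at rank 10 of all 54613 by the change within replicate 1. It was among the 19 genes at least 2-fold higher within both replicates, which is 0.0962% of all genes; 6 genes (0.0304%) were as much lower. Counted over probe sets, 30 (0.0551%) were at least 2-fold higher within both replicates. Of the 148 replicate 2 values that the layout of the deposited table places in a 2-fold higher list, only 92 were restored. Strongly raised genes are thus under-represented in the ranks and counts that used restored values. The lipoprotein receptor VLDLR, not restored, was higher by 2.08 within replicate 1, beside 2.10 for NDRG1. The arrays of 1 condition also differed more for NDRG1 than for most genes. The EDHB arrays were 0.64 apart, a gap reached by 97 genes (0.491%), against a median gap of 0.10 over all genes, and the untreated arrays were 0.25 apart, against a median of 0.11. The mean change ran from 1.98 without EDHB replicate 2 to 2.62 without EDHB replicate 1.

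The replicate 2 value of NDRG1 came from the run of 148 probe sets that the layout of the deposited table places in a list of those at least 2-fold higher in that pair. The entry assigned to NDRG1 was at place 14, with a posterior probability of 0.999. The entries before and after it had untreated levels of 2.97 and 8.81, both far from the 6.78 of NDRG1 on the other untreated array. They were higher by 1.07 and 1.08 after EDHB. Every entry of that list is at least 2-fold higher by its construction. Both the direction and the size of the replicate 2 increase, 2.49, therefore rest on this assignment. So does the place of NDRG1 among the genes at least 2-fold higher within both replicates.

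**Figure D2:**
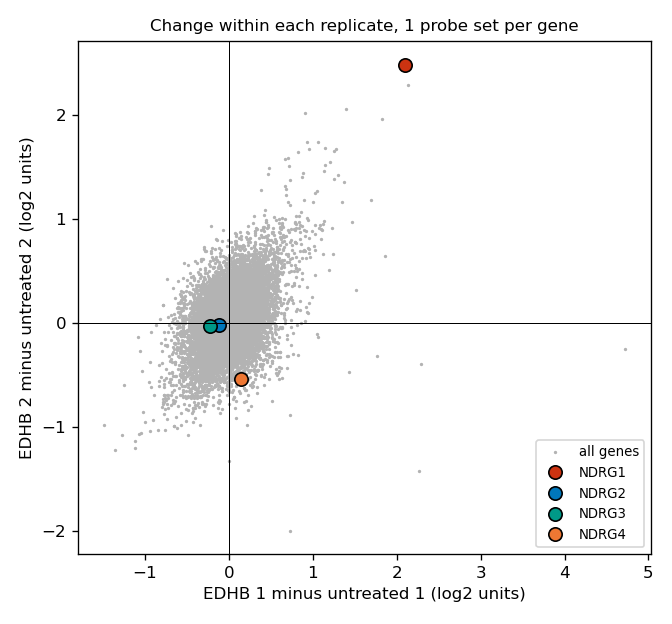
Change after EDHB within replicate 1 (horizontal axis) and within replicate 2 (vertical axis), both in log2 units, for 1 probe set of each of 19751 genes (grey) and for the 4 NDRG genes (coloured). NDRG1 lies far out at 2.10 and 2.49, whereas NDRG2, NDRG3 and NDRG4 lie inside the cloud of all genes.

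The other 7 probe sets of the family had far smaller changes than NDRG1. Their mean changes ran from -0.26 to 0.003, and their changes within single replicates from -0.54 to 0.25. In 6 of the 7 the untreated and EDHB arrays overlapped, and in 1 both EDHB arrays lay lower; over all probe sets, both EDHB arrays lay above in 20.2% and below in 21.8%. Across the 4 genes the median change was -0.10, beside -0.0014 over all genes.

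NDRG3, the member known as a substrate of EGLN1 at the protein level, was read by 3 probe sets, all above the median probe set on all 4 arrays. The brightest read 375 and 311 on the untreated arrays and 322 and 304 on the EDHB arrays. As log2 levels these are 8.55 and 8.28, against 8.33 and 8.25. EDHB replicate 1 lay between the untreated arrays, so the groups overlapped. The mean change was -0.13, with -0.22 within replicate 1 and -0.03 within replicate 2, and 44.3% of all genes had a larger mean change in either direction. The second probe set read 121 and 109.6 without EDHB and 109.5 and 117 with it, a mean change of -0.03 (-0.14 and 0.09 within the replicates). The third read 49.4 and 33.8 without EDHB and 35.9 and 40.1 with it, a mean change of -0.11. Its changes within the replicates were -0.46 and 0.25, and its untreated arrays differed by 0.55. In both of these probe sets the replicates thus differed in sign, and in all 3 the groups overlapped. These arrays read RNA only, and NDRG3 protein was not analysed here.

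NDRG2 was seen above the median level by 1 of its 3 probe sets. That probe set read 62.3 and 63.7 on the untreated arrays and 57.5 and 63.0 on the EDHB arrays. The levels were 5.96 and 5.99, against 5.85 and 5.98, and the groups overlapped because EDHB replicate 2 lay between the untreated arrays. The mean change was -0.07 (-0.12 and -0.02 within the replicates), and 67.3% of all genes had a larger one in either direction. The other probe sets of NDRG2 lay below the median probe set on all 4 arrays. One of them read 16.5 and 16.3 without EDHB and 14.5 and 12.9 with it. It was the only family probe set with both EDHB arrays below both untreated arrays, an arrangement that 21.8% of all probe sets showed, and the changes within the replicates were -0.19 and -0.33. The last read 16.7 and 17.2 without EDHB and 18.0 and 15.98 with it, a mean change of 0.003 (0.11 and -0.11 within the replicates). At such levels no change of NDRG2 can be read from these probe sets.

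NDRG4 was not shown to be above background. Its 1 probe set read 14.6 and 21.2 on the untreated arrays and 16.1 and 14.6 on the EDHB arrays. The levels were 3.87 and 4.40, against 4.01 and 3.87, all below the median probe set. The groups overlapped and the change had opposite signs within the replicates, 0.14 and -0.54, with untreated replicate 2 the highest of the 4 arrays.

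Promoters of NDRG2 and NDRG4 are shown for the short core that HIF is known to bind, written ACGTG or GCGTG and read on both strands. RefSeq windows were read for NDRG2 (5 starts) and NDRG4 (4 starts), and each was limited to the 250 bases before the start. The promoter of NDRG1, the member that was higher after EDHB, is not reported here, and no window was given for NDRG3. The counts below therefore say nothing about these genes. The form ACGTG was in 0 of 5 NDRG2 windows and 0 of 4 NDRG4 windows, and it was in 18.5% of all 35116 promoter windows of that length. Either form was in 3 of 5 NDRG2 windows and 1 of 4 NDRG4 windows, against 43.2% of all windows. In NDRG2 the windows of 2 neighbouring starts overlap and hold the same match. The sequences below are a window of each gene that holds GCGTG or its complement, 5′ to 3′ on the gene's strand, in RefSeq build GRCh38.p14, with the matches in capitals.
NDRG2 promoter, chr14:21025062-21025311, minus strand: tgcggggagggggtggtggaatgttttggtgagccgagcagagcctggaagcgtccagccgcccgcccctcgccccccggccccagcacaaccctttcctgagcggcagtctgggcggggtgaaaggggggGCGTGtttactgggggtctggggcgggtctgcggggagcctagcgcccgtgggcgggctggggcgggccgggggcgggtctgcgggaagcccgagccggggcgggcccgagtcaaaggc
NDRG4 promoter, chr16:58463465-58463714, plus strand: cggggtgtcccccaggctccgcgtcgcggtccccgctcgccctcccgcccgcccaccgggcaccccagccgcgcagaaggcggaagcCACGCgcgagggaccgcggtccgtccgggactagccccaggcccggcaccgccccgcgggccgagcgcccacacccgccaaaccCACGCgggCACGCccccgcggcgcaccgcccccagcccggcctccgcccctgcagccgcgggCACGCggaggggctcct
The NDRG2 window holds 1 match, beginning 119 bases before the start, and the NDRG4 window holds 4, beginning 163, 79, 71 and 17 bases before it. A match describes these letters only and is not a binding site. Both genes had mean changes between -0.26 and 0.003 on their probe sets.

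Genes listed as regulators of NDRG genes or proteins, or as their partners, were more often higher than lower after EDHB, mostly by small amounts. A list of 36 such genes was read, of which 29 could be measured on all 4 arrays. In limma, fitted over all genes with Benjamini-Hochberg adjustment at 0.05, 0 of the 29 were called, beside 2 of all 19751 genes (0.0101%), with 6 of the 29 at an unadjusted p under 0.05 (16.8% of all genes). Both EDHB arrays lay above both untreated arrays for 16 and below for 3, where 23.2% and 22.5% of all genes did so. By mean level 28 of the 29 lay above the median probe set. The shares over all genes include dim genes and are not matched for level. The median change was 0.13 (0.14 and 0.12 within replicates 1 and 2), beside -0.0014 over all genes. When limma's prior variance was allowed to follow intensity (the intensity trend), 2 of the 29 were called, both higher, beside 375 of all genes (1.90%).

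Among the oxygen sensors and HIF subunits, EGLN1 had the largest change of those measured on all 4 arrays. HIF1A, the oxygen-regulated subunit, had levels of 11.58 and 11.61 without EDHB and 11.56 and 11.66 with it, so the groups overlapped. Its partner ARNT changed by 0.15 ± 0.07 and the related subunit EPAS1 by 0.18 ± 0.08 (SE, n = 2 and 2). On these brightest probe sets both had the EDHB arrays above the untreated arrays, and neither was called. Mean changes of the other probe sets ran from -0.24 to 0.23 for ARNT and from 0.002 to 0.31 for EPAS1. In some of these, for both genes, the groups overlapped. Each SE here and below is limma's moderated one, in which a prior from all genes enters the variance of each gene. VHL, which tags hydroxylated HIF, changed by 0.07 ± 0.08 (SE). EGLN1, both a regulator and a target of HIF, had levels of 8.37 and 8.54 without EDHB and 8.96 and 8.997 with it. That is a change of 0.52 ± 0.09 (SE), 1.44-fold, called with the intensity trend (adjusted p = 0.0398 in limma) but not without it (0.125); of its 3 other probe sets 1, below the median probe set, did not share the sign. EGLN3, a related hydroxylase, could not be restored in replicate 2. Within replicate 1 its probe sets were higher by 1.21 and 1.69, the second from a level of 4.41, below the median probe set.

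**Figure D3:**
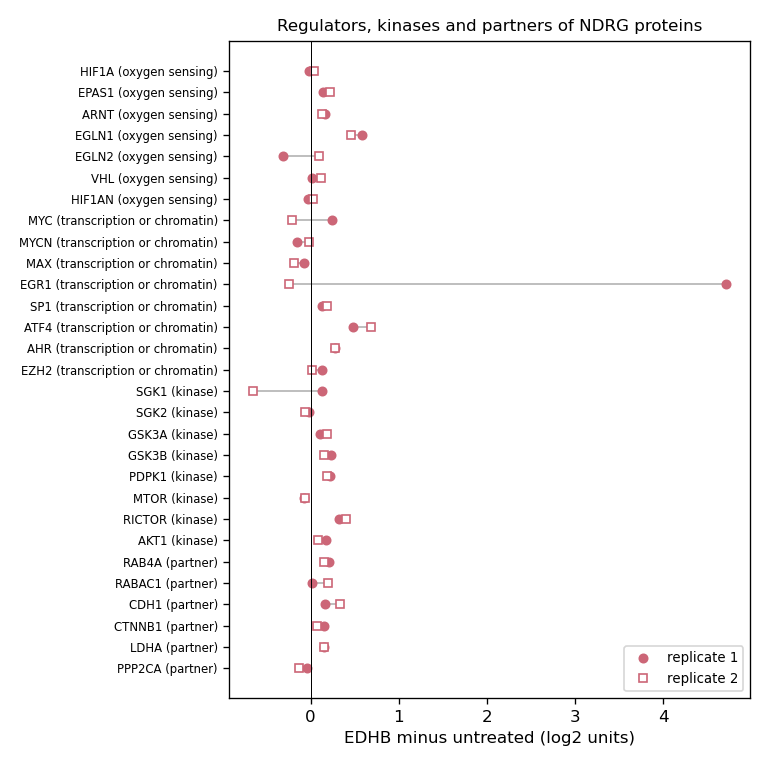
Change after EDHB (log2 units, horizontal axis) within replicate 1 (filled circles) and replicate 2 (open squares) for the 29 measured regulators, kinases and partners of NDRG genes and proteins, with the role of each in brackets. Most lie close to zero in both replicates, and EGR1 is far apart between them, at 4.72 and -0.25.

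Transcription factors known to act on NDRG1 did not share a direction. MYC, a repressor of NDRG1 and NDRG2, had levels of 11.02 and 10.89 without EDHB and 11.26 and 10.68 with it. Its change was 0.24 within replicate 1 and -0.21 within replicate 2, and the groups overlapped. MAX, the partner of MYC, changed by -0.13 ± 0.08 (SE). EGR1, an immediate early factor, had levels of 5.09 and 5.35 without EDHB, 9.81 on EDHB replicate 1 and 5.10 on EDHB replicate 2. All 3 of its probe sets were high on EDHB replicate 1 alone, and the mean change of 2.24 became -0.12 without that array. ATF4, a factor of the amino acid and stress response, had a change of 0.58 ± 0.09 (SE), called with the intensity trend (adjusted p = 0.0227 in limma) but not without it (0.115). AHR, the receptor for aryl hydrocarbons, changed by 0.28 within each replicate and was not called.

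None of the kinases and partners was called in limma with or without the intensity trend. SGK1, the kinase that phosphorylates NDRG1, had levels of 7.84 and 8.64 without EDHB and 7.97 and 7.98 with it. The untreated arrays lay on either side of both EDHB arrays, and the mean change of -0.26 became 0.13 without untreated replicate 2. GSK3B, which phosphorylates NDRG1 after SGK1, changed by 0.19 ± 0.09 (SE), and the 4 other probe sets of this gene by -0.03 to 0.13. RICTOR, a subunit of the complex that activates SGK1, changed by 0.36 ± 0.08 (SE) and was not called (adjusted p = 0.148 in limma). Of the partners, RAB4A, a small GTPase of recycling endosomes, changed by 0.18, and CDH1, the adhesion protein E-cadherin, by 0.25. LDHA, which makes the lactate known to bind NDRG3, had levels of 12.88 on both untreated arrays and 13.04 on both EDHB arrays. That is a change of 0.16 ± 0.07 (SE). The untreated arrays were only 0.0007 apart and the EDHB arrays 0.0025, so this SE comes almost wholly from the prior.

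Other genes known to be induced by HIF were mostly higher after EDHB too, each measured one by a smaller mean change than NDRG1. Of 32 other HIF targets read, 28 could be measured on all 4 arrays. EGLN1 and LDHA were also in the list of regulators and partners, so the lists are not separate sets. In limma 1 was called, higher, and with the intensity trend 16 were called, all higher, beside 0.0101% and 1.07% of all genes called higher in the same fits (0.830% were called lower with the trend). Both EDHB arrays lay above both untreated arrays for 23 of the 28 and below for 0 (23.2% and 22.5% of all genes). At least 2-fold higher within both replicates were 4 (0.0962% of all genes), and the replicate 2 part of this count rests on the alignment. The median change was 0.64 (0.61 within each replicate), whereas that over all genes was -0.0014. KDM3A, BHLHE40, BNIP3L and MIR210HG entered by a dimmer probe set, since a brighter one was not restored. Within replicate 1 the brighter ones were higher by 0.88, 1.22, 1.00 and 2.01. The dimmer ones gave 0.17, 0.45, 0.93 and 2.14 in the same order. By mean level 26 of the 28 lay above the median probe set, so here too the shares over all genes are not matched for level. Earlier results on these samples were known when the list was drawn up, so its direction is not independent evidence.

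**Figure D4:**
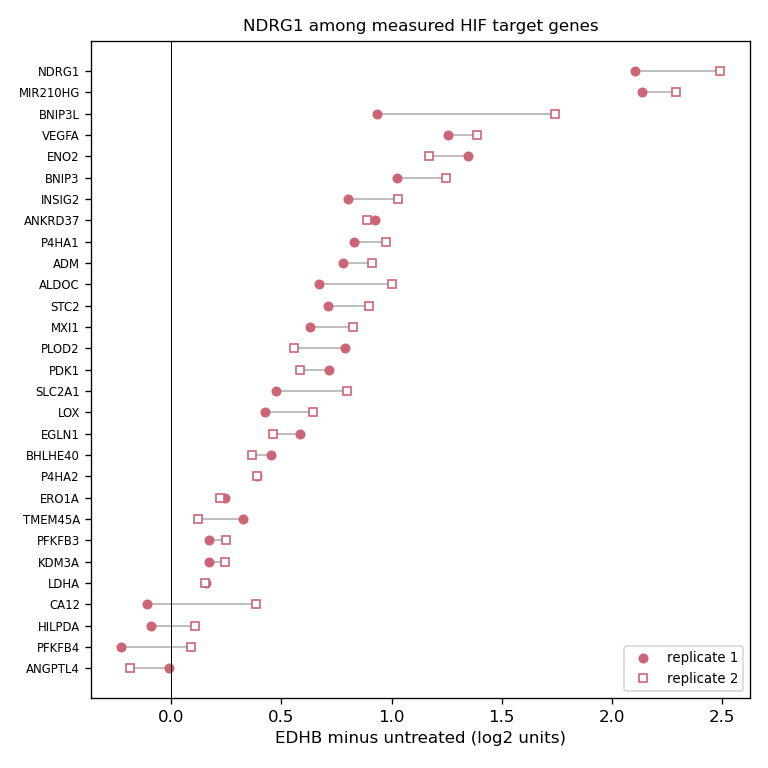
Change after EDHB (log2 units, horizontal axis) within replicate 1 (filled circles) and replicate 2 (open squares) for NDRG1 and the 28 measured HIF target genes, ordered by mean change. NDRG1 and MIR210HG lie beyond 2 in both replicates and BNIP3L, VEGFA, ENO2 and BNIP3 follow between 0.93 and 1.74.

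Among the 28 targets measured on all 4 arrays, those closest to NDRG1 in size were a noncoding transcript and mitophagy, growth factor and glycolysis genes. MIR210HG, the host transcript of the microRNA miR-210, went from 2.92 and 2.85 to 5.06 and 5.15. It rose in limma (adjusted p = 0.0249), with EDHB above untreated in both replicates, but the untreated levels lay below the median probe set, so its fold is uncertain. That call was lost without any 1 of the 4 arrays. VEGFA, the angiogenic growth factor, had a change of 1.32 ± 0.10 (SE), and its 3 other probe sets gave 0.66 to 0.71. ENO2, a neuronal-type enolase, had a change of 1.26 ± 0.08, and the mitophagy receptors BNIP3 and BNIP3L had changes of 1.14 ± 0.11 and 1.34 ± 0.20 (SE). VEGFA, ENO2, BNIP3 and BNIP3L were called with the intensity trend but not without it (adjusted p = 0.00792, 0.0091, 0.0104 and 0.0347 in limma with the trend). BNIP3L differed most between the replicates, with 0.93 and 1.74. Like NDRG1, it was higher on EDHB replicate 2 than on EDHB replicate 1, as were MIR210HG, VEGFA and BNIP3 but not ENO2. VLDLR, the lipoprotein receptor, and DDIT4, an inhibitor of mTORC1, could not be restored in replicate 2; within replicate 1 they were higher by 2.08 and 0.89. ANGPTL4, a secreted inhibitor of lipoprotein lipase named here after its values were seen, was the 1 target lower within both replicates, with a mean change of -0.10, and was not called.

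NDRG1 was once named for differentiation, and genes of squamous differentiation were read beside it. Of 19 measured genes, 0 were called in limma with or without the intensity trend (1.90% and 0.0101% of all genes), with 3 at an unadjusted p under 0.05 (16.8% of all genes). The median change was -0.06 (0.06 within replicate 1 and -0.05 within replicate 2), with 6 higher and 6 lower within both replicates (31.0% and 31.0% of all genes), and 10 of the 19 lay above the median probe set. S100A8, a calcium-binding alarmin, had levels of 4.55 and 5.21 without EDHB and 5.46 and 5.23 with it, so that the change of 0.91 within replicate 1 was only 0.02 within replicate 2. S100A9, its partner, changed by 0.63 and -0.05 in the same order. The other probe set of S100A8, which lay below the median one, had a mean change of -0.25. CSTA, a protease inhibitor of the cornified envelope, had a mean change of 0.36 at levels above 10 on all 4 arrays, and was not called. SPRR1A, an envelope precursor, changed by -0.33 on a level near the median probe set. Its other probe set, which lay below the median one, changed by 0.35. FLG, filaggrin, lay below 2 on all 4 arrays.

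The genes whose pattern over the 4 arrays came closest to that of NDRG1 were MIR210HG, NMRAL2P, GDF15, SLC1A4 and MAB21L3. Closeness is the Euclidean distance between log2 levels after the untreated mean was subtracted, over 4 arrays, and it was 0.47, 0.76, 1.18, 1.25 and 1.26 in that order. NMRAL2P, a pseudogene, went from 5.69 and 5.57 to 7.52 and 7.54. GDF15, a stress-induced cytokine, went from 6.46 and 5.72 to 7.86 and 7.78. Mean changes of -0.05 and 0.69 were read from its 2 dimmer probe sets, which lay below the median one. SLC1A4, a transporter of neutral amino acids, went from 6.13 and 5.91 to 7.40 and 7.59. MAB21L3 went from 2.79 on both untreated arrays to 3.94 and 4.47, all below the median probe set. Being chosen for a pattern like that of NDRG1, these genes are higher after EDHB by construction. None of NDRG2, NDRG3 and NDRG4 was among them.

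**Figure D5:**
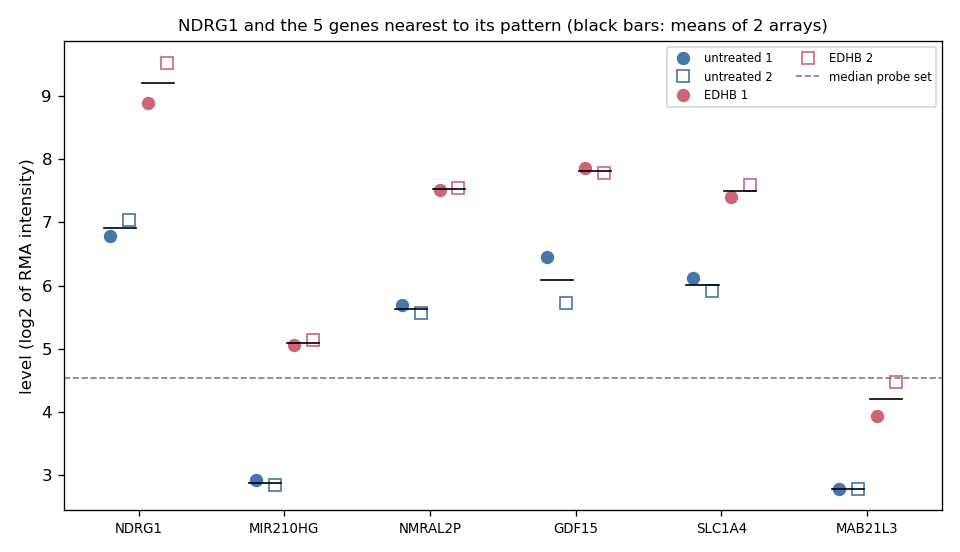
Levels (log2 of RMA intensity, vertical axis) of NDRG1 and of the 5 genes nearest to its pattern on the 4 arrays; filled circles are replicate 1, open squares replicate 2, blue untreated and red EDHB, black bars the means of 2 arrays, and the dashed line the median probe set at 4.54. All 6 genes are higher on both EDHB arrays, and NDRG1 has the widest gap between EDHB arrays, 0.64.

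Of the 4 members, 0 were called in limma over all genes (0.0101% of all genes called) and 1, NDRG1, was called with the intensity trend (1.90% of all genes called). With every probe set fitted on its own, 0 of the 8 were called, beside 0.00% of all probe sets (7315 of 54459, 13.4%, had an unadjusted p under 0.05). Nothing is read from these counts for the family, which was chosen on this comparison.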

How the data were processed

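Gene expression was measured on Affymetrix arrays in 2 untreated and 2 EDHB-treated samples of KYSE170. Values were deposited as linear intensities, 1 for each probe set on each array; RMA is the method that the submitters' processing notes name, and its software is not given in the sources used here. The method equalises the arrays' distributions and compresses low levels. The log2 of each deposited intensity was taken without a pseudocount.

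Replicate 2 values stood in a row order of their own. They matched a layout in which each pair had been sorted separately into probe sets at least 2-fold higher (148), at least 2-fold lower (45) and the rest (54419), each in ID order; this is inferred, not recorded. A forward-backward alignment used the untreated log2 levels alone (t density, scale 0.15, 3 degrees of freedom), and matches with a posterior of at least 0.95 were kept. The untreated arrays then correlated at 0.996 across probe sets (0.415 as deposited), which follows from matching on those levels. The changes within the 2 replicates, which the alignment did not compare, correlated at 0.376. Of 193 list values 113 were restored, so strongly changed genes are under-represented.

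The brightest restored probe set annotated to 1 gene stood for each gene, named by the platform annotation. EDHB was compared with untreated by limma 3.58.1 in R 4.3.3 (lmFit, eBayes, Benjamini-Hochberg, no block). Alignment and fit were also run on simulated data. The alignment run drew its noise from rows already restored, so it cannot give the error rate on the deposited columns. By rule, the genes named were all family probe sets, a fixed set of regulators and the 5 genes nearest NDRG1. The rule also took called members and the 5 largest mean changes of each list. VLDLR, DDIT4, KRT14, ANGPTL4, KDM3A and BHLHE40 were named outside it, after their values were seen. Members and lists were chosen with earlier results of these data known. Listed genes without a probe set of their own, among them SGK3, were not analysed here. Alternatives were another prior, scalings, posterior minima, filters, a replicate block and leaving out each array.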

Additional observations from a re-analysis of the deposited data

How the results depend on the processing

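The number of genes called in limma was 2 and depended on nearly every choice. It became 375 with the intensity trend, 40 with arrays centred on their medians, 7 with cyclic loess, 426 with dim genes left out, and 0 with a posterior minimum of 0.5 or with every probe set tested. The HIF target count of 1 became 16, 7, 2, 15 and 0 under the trend, the centring, cyclic loess, the filter on dim genes and the posterior minimum of 0.5. The regulator count of 0 became 2 with the trend and 2 with the filter, and the differentiation count was 0 under every setting run. Leaving out each array in turn gave counts of 0 to 0 for all genes and for HIF targets. The replicate numbers are shared by the groups, but nothing says that they pair the samples; deviations of same-numbered arrays correlated at 0.21 across genes. With the replicate block the count of all genes and that of HIF targets were 0.

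The mean change of NDRG1 was 1.98 to 2.62 when each array was left out in turn, and 2.10 to 2.31 under the other settings, the replicate 1 pair alone included. That of NDRG3 was -0.26 to 0.0096 when each array was left out. NDRG2 ran from -0.13 to 0.00 and NDRG4 from -0.47 to 0.07. The cause of these moves was not tested beyond the arrays left out. With 2 arrays in each group, an exact permutation test of a single gene cannot go below 0.333. Probe sets below the median level were not shown to be above background, so neither the presence nor the size of a change there is certain.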
